A study of Homo sapiens with 13 samples.

Results

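Interferon-stimulated genes are the genes that cells switch on after an interferon signal, and 44 of them, listed by symbol, were followed here in xenograft tumours of human breast cancer cells. All 44 had a count in the bulk table of 57820 gene identifiers, and 41 were among the 15005 genes of the single-cell table. RSAD2, CMPK2 and USP18 were not analysed here in single cells. The members were grouped by a broad assigned role, which need not describe each gene. The oligoadenylate synthetase family held 4, virus binding and restriction 20 and ISG15 conjugation 5. Sensors and transcription factors numbered 6, and 9 members had other or less defined roles.

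The tumours came from BM1, which is derived from the breast cancer line MDA-MB-231 and tends to spread to bone. Each athymic nude mouse received 1000000 cells orthotopically, in a mammary fat pad. These mice lack a thymus and so most T cells, while other host cells remain. For bulk RNA sequencing, 5 control (CTRL) tumours carried the vector pLV-EF1a-IRES-Hygro and 5 KMT5C tumours carried human KMT5C, an enzyme that methylates histone H4, both after lentiviral transduction and selection. They were taken 4 weeks after implantation. For the single-cell libraries, made on a Fluidigm C1 instrument (HT chip), 3 experiments each paired 1 vector-control tumour (CTRL) with 1 tumour of cells made to express RKIP-S153E, called RKIP tumours here as they are labelled. They were taken after 3 weeks, dissociated, and cleared of mouse and dead cells. The labels do not say whether an arm was 1 clone or a pool, so a difference already present before transduction and the effect of the construct cannot be told apart.

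KMT5C itself was at 7.16, 8.82, 11.2, 7.91 and 9.20 CPM (counts per 1000000 counts of the scaled library) in the CTRL tumours 801, 803, 804, 813 and 815, and at 99.8, 141, 121, 145 and 107 CPM in the KMT5C tumours 807, 809, 816, 820 and 823. Values per bulk tumour are given in this order throughout. Human PEBP1, which encodes RKIP, was at 366, 301 and 300.1 CPM in CTRL tumours 1, 2 and 3 and at 274, 270.2 and 279 CPM in the RKIP tumours, so its count did not check the RKIP label. Bulk libraries held 37050750 to 49536763 counts, and the single-cell tumours 247 to 274 cells each, with medians of 55704 to 95289 counts per cell. In each experiment CTRL cells filled columns 1 to 10 of the chip and RKIP cells columns 11 to 20, so arm and chip position cannot be told apart.

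In this pathway, interferons bind receptors at the cell surface, and the kinases JAK1 and TYK2 then pass the signal on. Transcription factors that include STAT2 and IRF9 bind the interferon-stimulated response element (ISRE) in promoters of such genes. Many products bind viral RNA or block viral entry and release, and others sense nucleic acids or carry the signal on. In tumours such genes are known as part of the response to nucleic acids, to DNA damage and to immune cells.

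Promoter windows of some members called in bulk are printed below. Of the called members whose window holds the ISRE core, the 4 with the largest changes were picked. They therefore cannot show that called members share the core. RefSeq windows (GRCh38.p14) were found for 36 of the 44 members. IRF7, OAS2, MX2, IFIT2, TRIM22, IFITM2, USP18 and OASL had no matching entry. The ISRE core was searched on both strands as GAAA, any 2 bases and GAAA in the 250 bases before the start site, and it was present in 25 of the 36 members (69.4%), against 3.71% of 27305 genes with a window. Shown 5′ to 3′ on the gene's strand, with the core or its reverse complement in capitals, are 4 called members with a core and XAF1, a called member without one.
IFI44L, chr1:78620198-78620447, plus strand: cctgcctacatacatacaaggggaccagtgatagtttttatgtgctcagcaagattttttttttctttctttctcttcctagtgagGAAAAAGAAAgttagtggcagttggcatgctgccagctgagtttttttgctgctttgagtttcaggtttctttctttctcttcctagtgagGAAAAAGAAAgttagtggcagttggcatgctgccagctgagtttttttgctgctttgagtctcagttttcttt
MX1, chr21:41431800-41432049, plus strand, 1 of 3 listed starts: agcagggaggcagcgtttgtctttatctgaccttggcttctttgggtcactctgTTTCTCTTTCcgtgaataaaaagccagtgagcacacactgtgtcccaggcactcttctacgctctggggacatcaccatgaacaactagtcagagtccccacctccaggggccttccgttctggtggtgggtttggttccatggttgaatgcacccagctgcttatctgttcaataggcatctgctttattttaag
BST2, chr19:17405631-17405880, minus strand: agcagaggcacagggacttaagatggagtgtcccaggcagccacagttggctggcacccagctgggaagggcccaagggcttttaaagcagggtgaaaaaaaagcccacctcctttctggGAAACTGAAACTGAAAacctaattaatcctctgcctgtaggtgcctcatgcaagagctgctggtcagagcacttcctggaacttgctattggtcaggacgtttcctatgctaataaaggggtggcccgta
IFI44, chr1:78649539-78649788, plus strand, 1 of 2 listed starts: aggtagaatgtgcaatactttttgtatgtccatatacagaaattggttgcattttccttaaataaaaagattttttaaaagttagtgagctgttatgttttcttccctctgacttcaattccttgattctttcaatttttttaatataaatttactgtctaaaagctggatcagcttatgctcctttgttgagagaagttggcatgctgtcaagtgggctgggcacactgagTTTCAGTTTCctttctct
XAF1, chr17:6755796-6756045, plus strand, 1 of 2 listed starts: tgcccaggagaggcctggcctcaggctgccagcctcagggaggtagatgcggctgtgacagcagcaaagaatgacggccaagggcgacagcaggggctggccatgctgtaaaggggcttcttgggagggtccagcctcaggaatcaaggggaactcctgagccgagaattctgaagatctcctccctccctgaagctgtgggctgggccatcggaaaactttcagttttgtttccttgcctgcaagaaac

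IFI44L held 2 copies of the core, whose first bases lie at -164 and -73 from the start site, and BST2 held 2 overlapping copies at -130 and -124. In MX1 the core lay at -196 and in IFI44 at -18. The core was present in 8 of the 9 members with a window that were called lower in KMT5C tumours (below) and in 17 of the 26 that were tested without a call. A second element, the gamma-activated site searched on both strands as TTCNNNGAA, was in 11 of the 36 members (30.6%), against 8.09% of all genes with a window. These matches describe letters in a fixed window.

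In bulk, 13 of the 43 members tested fell in KMT5C tumours and none rose (edgeR, adjusted p under 0.05 over 17947 genes, of which 1.9% fell and 1.06% rose). CMPK2 had at most 2 counts in a tumour and was not tested. In 11 members every KMT5C tumour was below every CTRL tumour, against 3.26% of all genes, and in none were all above (2.44%). Each of the 11 was among the 13 called. The log2 fold change was below 0 in 32 of 43 members, against 49.5% of all genes, and its median was -0.21, against 0.00 over all genes. The members were chosen with earlier results of these data known, so these contrasts with all genes are descriptions only. The largest called changes were about 2-fold, and 15 members lay within 0.1 of 0 on the log2 scale. In whole tumour RNA, fewer cells of a type and less RNA per cell cannot be told apart.

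**Figure D1:**
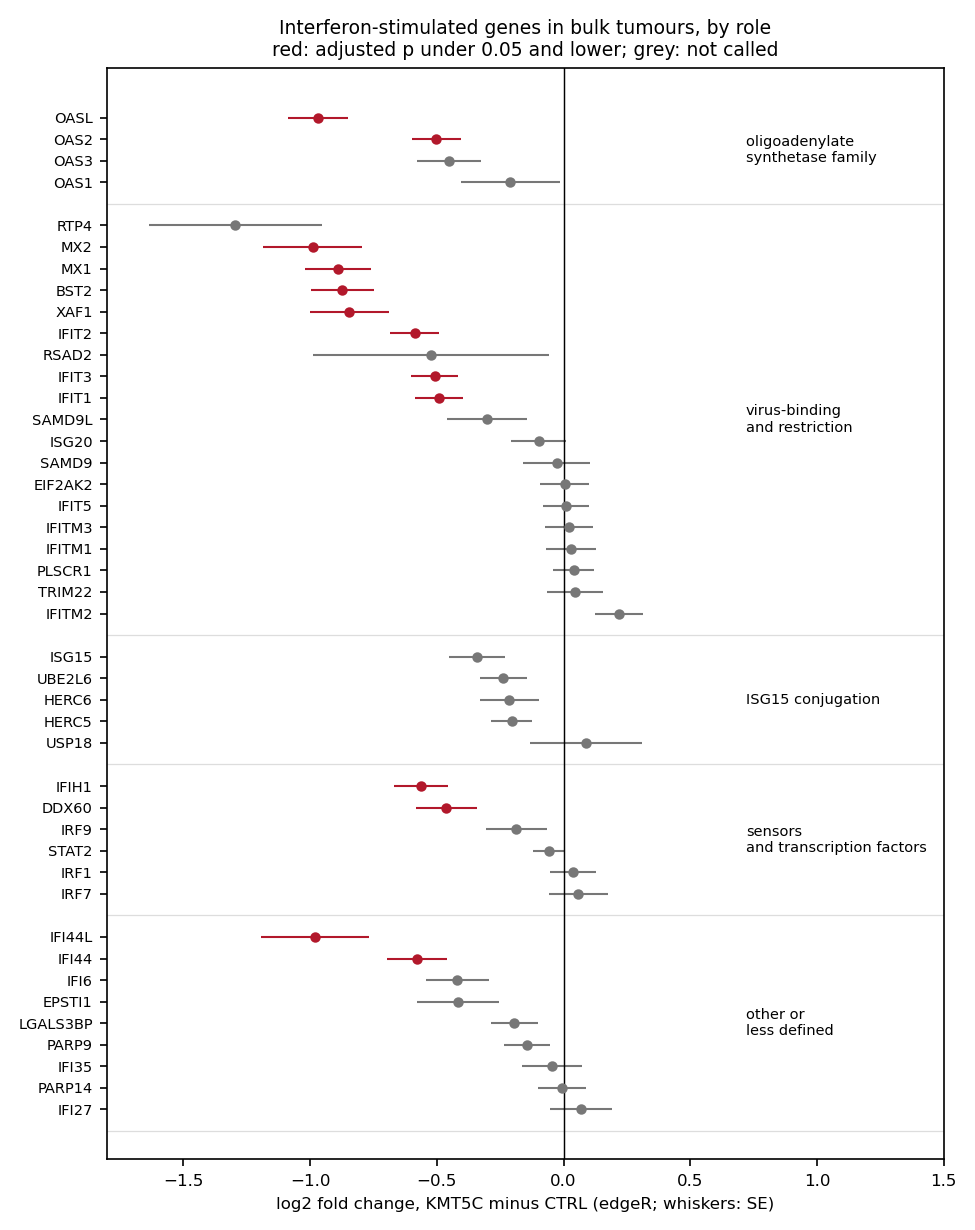
Log2 fold change (KMT5C minus CTRL, horizontal axis) of the 43 members tested in bulk, grouped by role, with whiskers of 1 standard error and called members in red. The 13 called members all lie left of 0, and the 5 ISG15 conjugation genes hold no red point.

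Of the oligoadenylate synthetases, which make the second messenger that activates RNase L, 2 of 4 fell (median log2 fold change -0.48). OASL, a family member that lacks the enzyme activity and binds the sensor RIG-I, was at 22.0, 32.3, 33.4, 25.9 and 32.6 CPM in CTRL tumours and at 16.3, 14.8, 16.001, 12.3 and 15.3 CPM in KMT5C tumours (-0.97, SE 0.12, adjusted p = 3.44e-04). OAS2 was at 21.4, 19.05, 21.7, 18.4 and 25.6 CPM against 16.1, 14.9, 15.8, 15.2 and 12.99 CPM (-0.50, SE 0.10, adjusted p = 0.00917). For both genes all KMT5C tumours lay below all CTRL tumours. OAS3 (-0.45, SE 0.13, adjusted p = 0.0686) and OAS1 (-0.21, SE 0.20, adjusted p = 0.655) did not pass.

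Among the 19 tested genes grouped under virus binding and restriction, XAF1 included, 7 fell (median -0.30). MX1, a dynamin-like GTPase that traps viral nucleoproteins in the cytoplasm, was at 7.55, 6.501, 7.99, 8.19 and 8.62 CPM in CTRL tumours and at 5.04, 3.47, 4.19, 4.80 and 3.41 CPM in KMT5C tumours (-0.89, SE 0.13, adjusted p = 0.00119). Its neighbour MX2, which acts at the nuclear envelope, was at 2.27, 1.76, 2.19, 2.51 and 2.68 CPM against 1.01, 1.15, 1.56, 1.26 and 0.742 CPM (-0.99, SE 0.20, adjusted p = 0.0107). The arms did not overlap for either GTPase. BST2 (tetherin), which holds budding virions on the cell surface, was at 63.2, 79.0, 105, 90.5 and 79.4 CPM in CTRL tumours and at 44.5, 49.5, 41.8, 37.7 and 54.6 CPM in KMT5C tumours (-0.87, SE 0.12, adjusted p = 9.85e-04). XAF1, a pro-apoptotic partner of XIAP, was at 8.83, 7.04, 9.27, 6.20 and 10.2 CPM against 5.28, 5.77, 4.65, 3.53 and 3.97 CPM (-0.85, SE 0.16, adjusted p = 0.00703). Again the lowest CTRL tumour was above the highest KMT5C tumour for each.

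The IFIT proteins bind viral RNA, and 3 of the 4 genes on chromosome 10 fell by similar amounts. IFIT1 was at 35.2, 44.6, 42.2, 38.5 and 41.9 CPM in CTRL tumours and at 34.3, 28.4, 30.8, 25.8 and 24.6 CPM in KMT5C tumours (-0.49, SE 0.10, adjusted p = 0.00959). IFIT2 was at 36.4, 40.6, 35.2, 34.8 and 40.8 CPM against 28.7, 24.3, 27.2, 25.1 and 19.7 CPM (-0.59, SE 0.10, adjusted p = 0.00262). IFIT3, which stabilises IFIT1 on RNA, was at 50.01, 58.4, 51.5, 48.4 and 63.1 CPM against 41.8, 38.3, 42.5, 34.2 and 33.9 CPM (-0.51, SE 0.09, adjusted p = 0.00598). The arms were separate for all 3, although for IFIT1 the highest KMT5C tumour came close to the lowest CTRL tumour. IFIT5, the fourth gene, was at 36.9, 29.3, 30.9, 29.05 and 31.5 CPM against 34.0, 29.4, 32.8, 35.2 and 27.1 CPM, and its arms overlapped over most of their range (0.01, SE 0.09, adjusted p = 0.975).

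The remaining restriction genes did not pass the test. RTP4 had the lowest fold change of any member (-1.30, SE 0.34, adjusted p = 0.0528), at 0.670, 0.672, 0.652, 0.456 and 0.601 CPM in CTRL tumours and 0.215, 0.519, 0.270, 0.124 and 0.139 CPM in KMT5C tumours. Its counts ran from only 6 to 33 in a tumour, and tumour 809 overlapped the CTRL arm. EIF2AK2, the kinase PKR that halts translation on double-stranded RNA, was at 85.9, 69.6, 66.2, 62.7 and 84.1 CPM against 82.1, 71.9, 80.6, 69.7 and 65.4 CPM (0.00, SE 0.10, adjusted p = 0.984). IFITM2, which blocks fusion of viruses with endosomes, had the largest positive value (0.22, SE 0.09, adjusted p = 0.258), at 72.2, 79.9, 96.9, 78.4 and 72.4 CPM against 86.5, 90.4, 89.4, 85.3 and 113 CPM. Tumour 823 stood highest, and CTRL tumour 804 overlapped the KMT5C arm. IFITM3 (0.02, SE 0.09, adjusted p = 0.939) and IFITM1 (0.03, SE 0.10, adjusted p = 0.915) lay at 0. The IFITM genes are near-identical in stretches of sequence, so how the counting divided their reads is uncertain.

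None of the 5 genes of ISG15 conjugation passed (median -0.21). ISG15, the ubiquitin-like modifier itself, was at 24.2, 34.1, 39.0, 32.5 and 35.03 CPM in CTRL tumours and at 26.4, 27.2, 26.2, 22.2 and 28.0 CPM in KMT5C tumours (-0.34, SE 0.11, adjusted p = 0.107). The overlap came from CTRL tumour 801, which was below 4 of the 5 KMT5C tumours, and without that tumour the value was -0.43 (adjusted p = 0.0140). That tumour was singled out after the values were seen, so ISG15 is not counted as called. USP18, which removes ISG15 and dampens receptor signalling, was at 0.873, 0.693, 0.977, 0.661 and 1.22 CPM against 1.18, 0.929, 0.789, 0.765 and 1.04 CPM (0.09, SE 0.22, adjusted p = 0.887).

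Among 6 sensors and transcription factors 2 fell, both of them RNA helicases, and the median was -0.12. IFIH1, the cytosolic sensor MDA5 for long double-stranded RNA, was at 7.85, 8.06, 7.67, 7.89 and 9.89 CPM in CTRL tumours and at 6.20, 6.04, 5.67, 5.04 and 5.03 CPM in KMT5C tumours (-0.56, SE 0.11, adjusted p = 0.00811). DDX60, a helicase linked to antiviral signalling, was at 17.2, 16.3, 14.9, 15.03 and 17.7 CPM against 14.2, 10.3, 13.9, 11.5 and 8.86 CPM (-0.46, SE 0.12, adjusted p = 0.0479). Both were separate between the arms, but DDX60 stood at the threshold and lost its call when any of CTRL tumours 801, 803, 804, 813 or 815 or KMT5C tumours 809, 820 or 823 was left out (adjusted p 0.0516 to 0.120). The transcription factors IRF9 (-0.19, adjusted p = 0.476), STAT2 (-0.06, 0.72), IRF1 (0.04, 0.884) and IRF7 (0.06, 0.858) did not pass.

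Of the 9 members with other or less defined roles 2 fell (median -0.19). IFI44L, a feedback regulator of interferon signalling, was at 4.57, 4.33, 4.89, 3.44 and 6.22 CPM in CTRL tumours and at 3.55, 1.91, 2.95, 1.80 and 1.62 CPM in KMT5C tumours (-0.98, SE 0.21, adjusted p = 0.0187). Its neighbour IFI44 was at 39.8, 47.8, 54.6, 35.8 and 47.1 CPM against 37.3, 27.3, 31.4, 29.3 and 25.5 CPM (-0.58, SE 0.12, adjusted p = 0.0128). In both genes KMT5C tumour 807 was above CTRL tumour 813, the single overlap. The call on IFI44L was lost without CTRL tumour 815, KMT5C tumour 809 or KMT5C tumour 820 (adjusted p = 0.0528, 0.0517 and 0.0622). IFI6, a mitochondrial protein, was at 7.57, 8.43, 11.5, 8.35 and 9.75 CPM against 7.86, 7.60, 6.33, 5.95 and 6.36 CPM (-0.42, SE 0.12, adjusted p = 0.0833).

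Also in that group were PARP14, an ADP-ribosyltransferase, and IFI27, a small mitochondrial protein, both without a call. PARP14 was at 36.8, 33.9, 34.8, 28.98 and 39.8 CPM against 39.3, 36.0, 36.5, 30.3 and 31.5 CPM (-0.01, SE 0.09, adjusted p = 0.983). IFI27 was at 15.9, 19.05, 25.1, 26.2 and 20.7 CPM against 23.4, 22.3, 23.4, 18.9 and 24.3 CPM (0.07, SE 0.12, adjusted p = 0.832). The KMT5C values fell within the CTRL range for IFI27, while for PARP14 the arms covered nearly the same range.

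**Figure D2:**
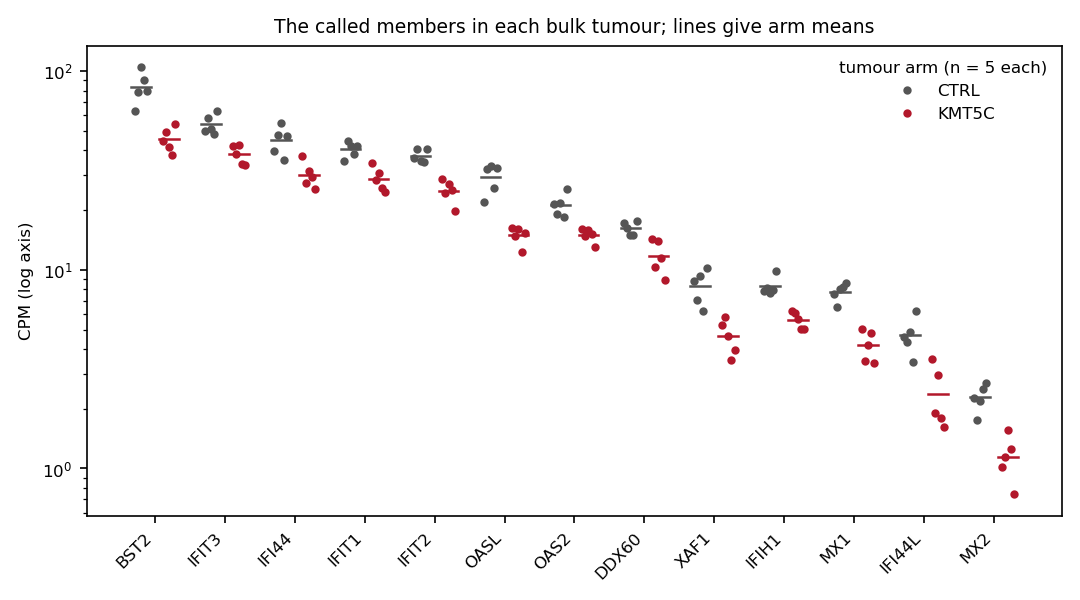
CPM (log axis) of the 13 called members in each of the 5 CTRL (grey) and 5 KMT5C (red) tumours, with lines at the arm means. The groups overlap by 1 tumour for IFI44 and IFI44L and do not overlap for the other 11 members.

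Levels per kilobase of exon (CTRL mean) spanned a wide range. IFITM3 was at 191, LGALS3BP at 153.4, BST2 at 74.6, IFITM2 at 51.8 and ISG15 at 35.03 CPM per kilobase, whereas MX1 was at 0.902, IFI44L at 0.458 and MX2 at 0.175. Of these 5 highest members BST2 alone was called.

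The tumours differed in how far they carried the pattern. The mean over the 43 members was 4.09 ± 0.0718 (SD, n = 5) log2 CPM in CTRL and 3.77 ± 0.0781 (SD, n = 5) in KMT5C tumours. By tumour it was 4.04, 4.04, 4.15, 4.04 and 4.19 in CTRL and 3.85, 3.77, 3.84, 3.67 and 3.71 in KMT5C tumours, with no overlap. CTRL tumour 815 had the highest value of its arm in 17 members. KMT5C tumour 823 was the lowest of its arm in 20 members and the highest of its arm in 13, so its members did not move together.

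Markers of other cells also differed between the arms. The host cells are mouse and the genes counted are human, so levels of host markers do not measure how many host cells were present. Of 11 tested skeletal muscle markers 6 rose in KMT5C tumours, with a median of 1.07 over the 11. Their mean log2 CPM was 0.273 to 1.27 in CTRL and 1.33 to 2.19 in KMT5C tumours, and their summed level 24.5 to 38.7 CPM and 40.4 to 71.5 CPM, with none of the 13 with a row at 0 throughout. With that mean as a covariate in the fit, which was higher in every KMT5C tumour than in every CTRL tumour, 0 of the 13 members stayed called, all 13 kept their direction, and the members' median was -0.13. BST2 was then at -0.96 (SE 0.21, adjusted p = 0.110), OASL at -0.76 (SE 0.19, adjusted p = 0.193) and IFI44L at -0.25 (SE 0.27, adjusted p = 0.838). Without KMT5C tumours 809 and 820, the highest in muscle markers, 5 members stayed called (OASL, BST2, MX1, IFIT2 and XAF1). Calls were lost over all genes as well. Genes called lower numbered 17 with the covariate and 131 without these 2 tumours, against 341 with neither change.

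Of 6 tested leukocyte markers 1 fell, LAPTM5 (-0.65, SE 0.10, adjusted p = 0.00204), and the list summed to 127 to 174 CPM in CTRL and 94.5 to 127 CPM in KMT5C tumours. LAPTM5 made up most of that sum, and without it the list was at 12.99 to 18.1 and 11.2 to 17.9 CPM. In the single-cell tumours, depleted of mouse cells, LAPTM5 was at a mean of 98.1 CPM in CTRL. S100A8 and TYROBP had no count in any tumour, and the pan-leukocyte marker PTPRC was at 0.557 ± 0.217 and 0.488 ± 0.0834 CPM (SD, n = 5). Such low counts of human genes do not show that mouse leukocytes were few. Of 8 tested endothelial markers TIE1 fell (-0.63, SE 0.14, adjusted p = 0.0254), with the list at 199.97 to 254 and 190.0 to 263 CPM. Of 10 tested markers of the BM1 cells themselves 1 rose, ANXA1 (0.31, SE 0.08, adjusted p = 0.0437), and the list summed to 9699 to 11910 and 10197 to 13717 CPM. Of 8 tested fibroblast and 5 tested adipocyte markers none was called, with sums of 351 to 907 and 442 to 999 CPM for fibroblast and of 33.7 to 39.5 and 37.6 to 41.8 CPM for adipocyte markers, of which ADIPOQ was at 0. The part of other cells in the members' change was not tested.

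Upstream of the members, no interferon gene passed the filter on low counts. Of 6 tested receptor genes 0 were called, 1 was below 0 and the median log2 fold change was 0.14. IFNAR1 was at 42.4 ± 4.02 and 48.0 ± 1.88 CPM (0.18, adjusted p = 0.233), IFNAR2 at 3.98 ± 0.743 and 4.49 ± 0.581 CPM (0.17, 0.607), IFNGR1 at 44.5 ± 1.90 and 47.8 ± 1.84 CPM (0.10, 0.444) and IFNGR2 at 41.1 ± 2.38 and 45.2 ± 4.54 CPM (0.14, 0.402), each with SD and n = 5 per arm. Of 18 signalling genes 0 were called and 7 were below 0 (median 0.06), among them JAK1 (0.18, adjusted p = 0.201) and TYK2 (0.10, adjusted p = 0.469).

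Of 19 tested nucleic acid sensing genes 1 fell, AIM2, a sensor of cytosolic DNA (-0.88, SE 0.18, adjusted p = 0.0132). Of 53 other tested interferon-stimulated genes 3 fell and none rose (median -0.06). These were the guanylate-binding proteins GBP4 (-1.41, SE 0.21, adjusted p = 0.00158) and GBP2 (-0.64, SE 0.08, adjusted p = 3.81e-04), and CASP1, the inflammasome protease (-1.34, SE 0.17, adjusted p = 4.48e-04).

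In single cells of tumours labelled RKIP, none of the 41 members tested was called (edgeR on counts summed per tumour, adjusted p under 0.05; 0.00688% of 14528 genes were called, 1 gene). At an unadjusted p under 0.05 there were 5 members, against 4.01% of all genes, and DESeq2 called 2 of the 40 members to which it gave an adjusted p, IFIT3 (adjusted p = 0.0145) and OASL (adjusted p = 0.0459), against 0.463% of 12968 genes. The median log2 fold change (RKIP minus CTRL) was 0.10, against 0.00 over all genes. All RKIP tumours were above all CTRL tumours in 3 members (MX2, IFITM1 and LGALS3BP; 4.43% of all genes) and below them in none (4.47%). In 9 members RKIP was higher in all 3 experiments (13.5% of all genes) and in 1, BST2, lower (13.5%). With 3 tumours an arm and standard errors of up to 2.10 among the members, an absent call does not show that levels were alike.

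Among members detected in at least 10% of cells, the largest fold changes were those of IFIT2, IFIT3 and OASL. IFIT2 was at 72.9, 75.6 and 102 CPM in CTRL tumours 1, 2 and 3 and at 485, 93.3 and 378 CPM with RKIP (1.66, SE 0.44, adjusted p = 0.973). IFIT3 was at 198, 159 and 124 CPM against 529, 169.8 and 336 CPM (0.99, SE 0.28, adjusted p = 0.973). OASL was at 66.7, 37.6 and 59.9 CPM against 104, 63.1 and 118 CPM (0.79, SE 0.18, adjusted p = 0.973). RKIP was above its paired CTRL tumour in all 3 experiments for each of these genes, but the difference was small in experiment 2 for IFIT2 and IFIT3. Without experiment 1, IFIT2 was at 1.10 (SE 0.34), and without experiment 2 at 2.31 (SE 0.25).

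A few cells held most of these counts. In RKIP tumour 3 the 5 cells with the most IFIT2 held 92.1% of its counts, and in the other tumours the share was 73.2% to 85.7%. Outside the 5 top cells of each tumour, IFIT2 was at 10.5, 18.9 and 21.6 CPM in CTRL and 129.9, 21.5 and 29.7 CPM in RKIP tumours. RKIP tumour 1 alone stood far above the rest. At a common depth of 20000 counts per cell, the mean IFIT2 count per cell was 1.199, 1.84 and 1.61 in CTRL and 8.65, 1.53 and 4.55 in RKIP tumours, so experiment 2 changed direction. The mean OASL count per cell at that depth was also slightly lower in RKIP than in CTRL tumour 2. In experiment 1 OASL was detected in a smaller share of RKIP than of CTRL cells at that depth.

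The members with the lowest fold changes among those detected in at least 10% of cells were BST2, IFI27 and IFI6. BST2 was at 187, 147 and 105 CPM in CTRL tumours and at 127, 85.8 and 79.0 CPM with RKIP (-0.58, SE 0.15, adjusted p = 0.973). IFI27 was at 88.2, 82.5 and 101 CPM against 97.3, 61.9 and 65.9 CPM (adjusted p = 0.973), and IFI6 at 36.5, 44.9 and 57.5 CPM against 36.2, 50.9 and 32.1 CPM (adjusted p = 0.973). BST2 was lower in every experiment and its arms overlapped, and IFI27 and IFI6 went in both directions. BST2 was the member with an unadjusted p under 0.05 that was lower, and it was also called lower in KMT5C tumours. IFIT2, IFIT3 and OASL, which were higher with RKIP without an edgeR call, were called lower in KMT5C tumours and so went the opposite way. The bulk and single-cell comparisons are of different tumours, constructs and times. None of the 5 receptor, 13 signalling, 17 sensing and 46 other interferon-stimulated genes tested in single cells was called, with medians of 0.07, 0.15, 0.14 and -0.11, and interferon genes were not analysed here in single cells.

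**Figure D3:**
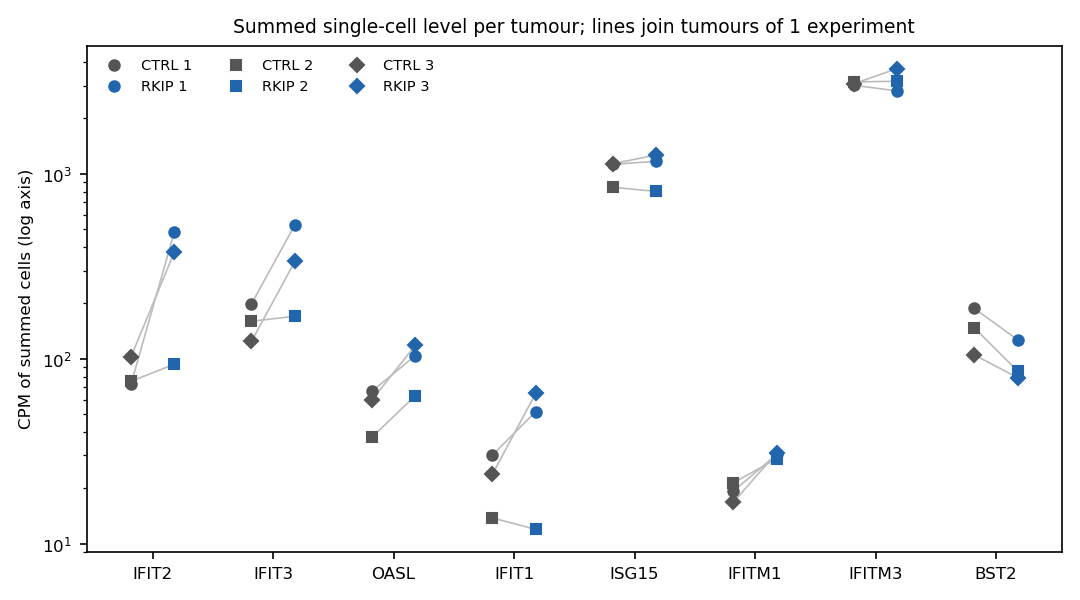
CPM of the summed cells (log axis) for 8 members in the 3 CTRL (grey) and 3 RKIP (blue) tumours, with lines joining the tumours of an experiment. IFIT2 runs from 72.9 to 102 CPM in CTRL and from 93.3 to 485 CPM in RKIP tumours, while IFITM3 lies between 2806 and 3707 CPM in all 6.

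Single cells differed far more in some members than in others. At 20000 counts per cell, 18 of the 41 members were detected in at least 10% of cells of every tumour, and 5 in under 5% of cells of every tumour. IFITM3 was found in 99.2% to 100% of cells and gave 37.4% to 50.8% of all member counts. ISG15 was in 73.9% to 87.4% of cells, IFITM2 in 76.8% to 92.6% and LGALS3BP in 82.6% to 96.7%. IFIT2 was in 13.7% to 27.4% of cells, OASL in 10.8% to 17.8%, and MX2 in 0.830% to 3.73%. The mean count over all members was 128 to 149 per cell.

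How evenly cells shared the counts varied as well. The 10% of cells with the most counts held 94.1% to 98.5% of the IFIT2 counts, 94.4% to 99.7% of OASL and 84.3% to 94.2% of IFIT3, against 57.6% to 72.5% of ISG15 and 24.4% to 34.6% of IFITM3. These shares partly follow the level of each gene, so the squared coefficient of variation was also set against its trend on the mean. Of 35 members with a mean of at least 0.1, 25 lay above the trend on average, against 58.5% of 10177 genes, and 8 did in all 6 tumours, against 9.03%. IFIT2, ISG15 and IFIT3 stood at the 99.9th percentile of all genes, OASL at 99.6 and IFIT1 at 98.5. IFITM1 stood at 2.45, among the most even genes for its level, and EIF2AK2 at 12.3. EIF2AK2 was above the trend in CTRL tumour 1 and RKIP tumour 2 and below it in the rest. No member's variation was called different between RKIP and CTRL tumours (limma, adjusted p under 0.05, 0.0% of all genes), nor was any at an unadjusted p under 0.05.

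**Figure D4:**
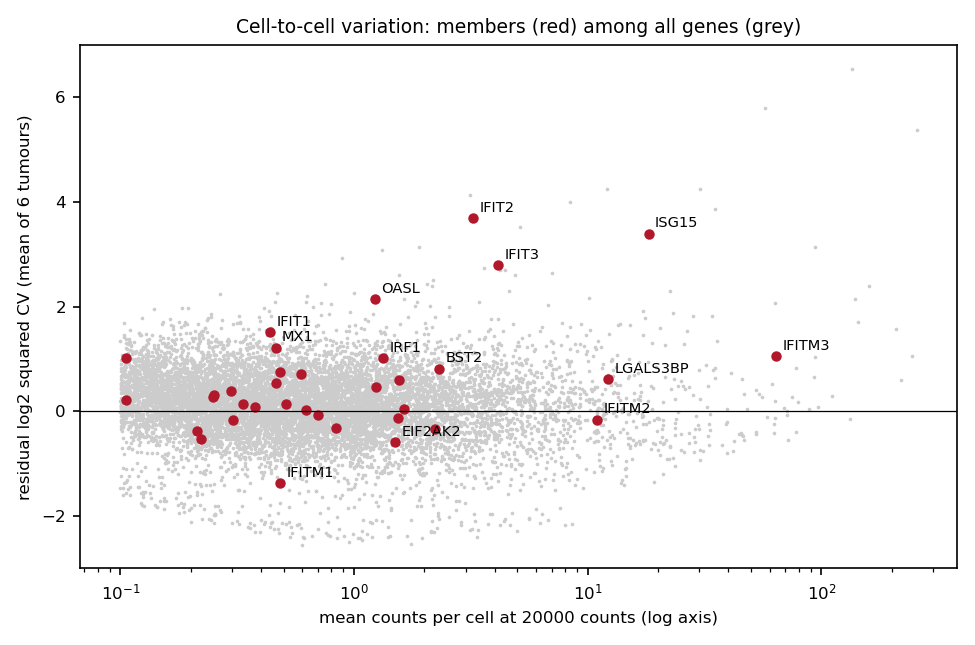
Residual log2 squared coefficient of variation (mean of 6 tumours, vertical axis) against mean count per cell at 20000 counts (log axis) for 10177 genes (grey) and 35 members (red). IFIT2, ISG15, IFIT3 and OASL lie above nearly all genes of their level, and IFITM1 and EIF2AK2 below the line at 0.

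Members varied together across cells, but mostly weakly. Over all pairs of the 18 members detected in at least 10% of cells, the median Spearman correlation was 0.0707, 0.0486 and 0.0949 in CTRL tumours 1, 2 and 3 and 0.0480, 0.0690 and 0.106 in RKIP tumours. Over all pairs of 5367 genes detected as widely it was 0.0226, 0.0170 and 0.0351 in CTRL and 0.0182, 0.0137 and 0.0365 in RKIP tumours. The member median was the higher one in each tumour, and 15.03% to 24.8% of member pairs exceeded the 95th percentile of all pairs. Cells of a tumour share its library, and these values are descriptions.

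Several of the closest pairs held OASL or an IFIT gene. OASL with IFIT2 had a median of 0.34 over the 6 tumours (0.204 to 0.385), IFIT2 with IFIT3 of 0.33 (0.163 to 0.503), OASL with ISG15 of 0.29 (0.185 to 0.321) and OASL with IFIT3 of 0.27 (0.204 to 0.378). IFITM2 with IFITM3 had a median of 0.28 (0.145 to 0.409), in a pair whose sequences are alike. The size and order of these values depended on the measure. With Pearson correlation of log2(count + 1), the medians were 0.59 for IFIT2 with IFIT3, 0.55 for OASL with IFIT2, 0.53 for OASL with IFIT3 and 0.30 for IFITM2 with IFITM3. Without thinning, IFITM2 with IFITM3 was at 0.31, level with IFIT2 with IFIT3 at 0.31, and OASL with IFIT2 was at 0.27. ISG15 followed the mean of the other members most closely (median 0.39), then IFITM3 (0.36) and OASL (0.28). EIF2AK2 (0.09), STAT2 (0.10) and IRF1 (0.11) followed it least.

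**Figure D5:**
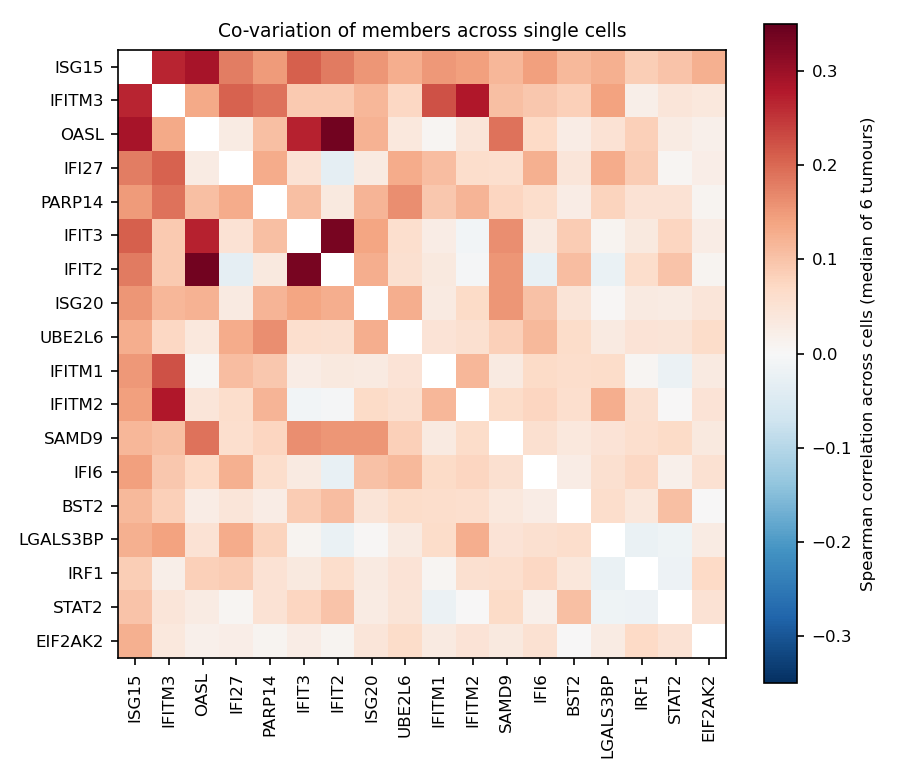
Spearman correlation across cells between 18 members (median of 6 tumours, colour scale), in order of their correlation with the mean of the others. The darkest cells join OASL, IFIT2 and IFIT3 with each other, ISG15 with OASL and IFITM3, and IFITM2 with IFITM3.

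In terms of cells, IFIT3 was detected in 47.1% to 70.7% of cells with an IFIT2 count and in 22.1% to 36.0% of cells without one. OASL was in 24.5% to 39.4% of the former and 5.45% to 10.9% of the latter. For IFITM1 the shares were 21.4% to 33.3% and 20.5% to 32.2%. The mean ISG15 count per cell was 85.9, 21.9 and 38.1 in CTRL and 54.5, 27.5 and 40.2 in RKIP cells with IFIT2, against 11.7, 14.9 and 12.1 in CTRL and 9.50, 12.2 and 13.02 in RKIP cells without it. Mean ISG15 was thus higher in IFIT2-positive cells of all 6 tumours. At full depth, though, the 5 cells with the most ISG15 held 32.8% to 62.1% of a tumour's ISG15 counts. By detection, ISG15 was in 84.5% to 91.8% of cells with IFIT2 and in 71.2% to 87.3% of cells without it. In CTRL tumour 2 these shares were 88.2% and 87.3%.

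The genes that fell in bulk KMT5C tumours differed in how single CTRL cells carried them. IFIT2 was in 13.7% to 17.7% of CTRL cells at the common depth, OASL in 12.2% to 13.9%, IFIT3 in 27.8% to 31.7% and BST2 in 39.8% to 50.8%. MX2 and XAF1 were in at most 2.85% of them. At full depth the 5 CTRL cells with the most counts held 75% to 85.7% of a tumour's IFIT2 counts, 61.1% to 84.2% of OASL, 53.2% to 64.3% of IFIT3 and 25.3% to 45.3% of BST2. IFITM3, IFITM2 and LGALS3BP, which were in most cells, did not pass the bulk test. Neither did some members found in few CTRL cells at the common depth. TRIM22 was in 2.07% to 4.88% of them, OAS1 in 2.49% to 6.91% and EPSTI1 in 0.830% to 3.25%.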

How the data were processed

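The authors deposited unnormalized counts of reads per gene, for each bulk tumour and for each cell. Reads were handled with Trim Galore, STAR and featureCounts on hg38 and hg19, per the submitters' processing notes, with no versions and no role for each build. Strand setting, molecular identifiers and removal of mouse reads are not given in the sources used here. Identifiers without a symbol held 0.664% of bulk counts and were kept. The members and lists were chosen with earlier results of these data known.

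Bulk counts, and single-cell counts summed per tumour after leaving out 1 cell with under 1000 genes, went into edgeR 4.0.16 under R 4.3.3 (quasi-likelihood, filterByExpr, TMM, robust). P-values are two-sided and Benjamini-Hochberg adjusted over all genes, with a threshold of 0.05. The standard error (SE) of an edgeR fold change is its absolute log2 value divided by the square root of the quasi-likelihood F statistic. Nothing in the labels used says that the tumours of an arm came from separate cultures, so p-values measure the spread between tumours only. Experiments entered the single-cell model as a block, since per the labels both arms were processed together in each. Arms were matched by the ending of the cell names, and the numbers 1 to 3 are arbitrary. Deviations from the arm means correlated at 0.188, 0.0705 and 0.19 within experiments 1, 2 and 3. Between CTRL and RKIP tumours of different experiments the values ran from -0.173 to 0.0348, so the margin was smallest for experiment 2.

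For shares, variation and co-variation, cells were thinned to 20000 counts (seed 1), which left out 87 shallower cells. Residuals of the log2 squared coefficient of variation from a lowess trend were compared with limma 3.58.1. DESeq2 1.42.0 was an alternative. On data with known answers, edgeR recovered 80 of 100 genes changed 2-fold and 96 of 100 changed 4-fold in bulk (17947 genes), and 21 and 41 of 100 in single cells (14528 genes). Members named with all values were those called, the 3 most positive and 3 nearest 0 in bulk, the 3 highest and 3 lowest in single cells among members in at least 10% of cells, and those of the 5 closest pairs and the 3 closest to the mean of the rest; RTP4, the MX2 and IFITM1 single-cell counts and other singled-out values were chosen after they were seen.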

Additional observations from a re-analysis of the deposited data

Results flagged for a closer look

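Both results here were flagged because 1 of 5 tumours of an arm lay far from the other 4 (Dixon's test at the 95% level). IFIH1 was at 9.89 CPM in CTRL tumour 815, where the next tumour was at 8.06 CPM and the lowest at 7.67 CPM. IFITM2 was at 113 CPM in KMT5C tumour 823, where the next was at 90.4 CPM and the lowest at 85.3 CPM. They are 2 of 44 groups of tumours looked at, and chance flags about 1 in 20 groups.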

How the results depend on the processing

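In bulk, members called lower numbered 13 with RLE scaling (of 327 genes called lower in all, against 341), 16 with DESeq2 (of 595), 17 with no low-count filter (of 550), 12 with a mean of at least 1 CPM (of 269) and 11 to 14 when 1 tumour was left out (of 222 to 369). They numbered 0 when muscle markers were a covariate, a fit which called 17 genes lower and 3 higher of all, and 5 without the 2 KMT5C tumours highest in muscle markers (of 131); the cause was not tested. The members' median was -0.13 with that covariate and -0.25 to -0.18 with 1 tumour left out. Over the 22 named members, 313 of 351 bulk alternatives kept their side of the threshold, 33 lost it, 5 gained it and 0 reversed. Named members without a call had none to lose, so all 33 losses fell on the 13 called members. In single cells 0 members were called under every alternative run except DESeq2, which called 2. The fit with no replicate block, so without the pairing of experiments, called 0 and gave a median of 0.06. Leaving out 1 experiment gave medians of 0.0437 to 0.138, and sums of thinned cells gave -0.01. The median share of cells with a member's count was 15.7% at 20000 counts per cell and 10.4% at 10000, where fewer counts are drawn, so depth limits every share. Member co-variation was 0.0625 to 0.0758 under the 4 alternatives, against 0.0698. These values are not of the same members, since 14, 18 or 26 entered, and the all-gene median moved too. Without thinning the all-gene median was 0.0340 to 0.0903 by tumour, against 0.0137 to 0.0365 with thinning to 20000 counts. The member median was then 0.0551 to 0.138, so it stood less far above all genes.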
